A study of Caenorhabditis elegans with 4 samples.

Results

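Chromosome IV of *Caenorhabditis elegans* carries 2444 of the 15765 COH-1 peaks in the list deposited for the whole study, and 1908 of them lie outside the domains that hold most piRNA genes. These 1908 were chosen by position alone. A peak was kept when its midpoint lay outside both domains, which span 4.5 to 7 Mb and 13.5 to 17.2 Mb of IV in the build named in the file headers, WormBase WS220. The kept peaks fall into 580 on the left arm (the first 4.5 Mb), 1271 in the centre (7 to 13.5 Mb) and 57 at the right end, the last 0.294 Mb up to the end of the last peak. The same rule keeps 322 of 409 peaks on IV in the replicate 1 list and 443 of 569 in the replicate 2 list.

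Cohesin is a ring-shaped complex that links sister chromatids and extrudes loops of interphase chromatin, and COH-1 is one of the kleisins that bridge its pair of SMC subunits. *C. elegans* has several kleisins, of which REC-8, COH-3 and COH-4 serve meiosis. Its autosomes have no single centromere but do have distinct domains: the arms recombine more, hold more repeats and carry more repressive histone methylation, while the centres hold more housekeeping genes. Chromosome IV is unusual in its piRNA domains, clusters of many short genes for the small RNAs that guard the germline, and the peaks outside them show COH-1 on the rest of this chromosome.

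COH-1 was mapped by ChIP-seq, the sequencing of DNA bound to an immunoprecipitated protein, with a rabbit polyclonal antibody against COH-1. All samples were hermaphrodites of strain fem-2(b245), carrying the b245 allele of fem-2 on chromosome III, a gene of the sex determination pathway, at the stage labelled as young adult with a germline; the growth protocol speaks of gravid adults, and the growth temperature was 20 °C per the series record. There were 2 ChIP samples and 2 input DNA samples, and the inputs have no values here. Worms were crosslinked for 20 minutes with EGS, which joins proteins, and 10 minutes more with EGS and formaldehyde, per the labels' protocols. Whole worms mix somatic and germline nuclei, so binding cannot be assigned to a tissue.

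Each ChIP replicate has its own peak list, and a further list stands for the whole study and is called the series list. No source used here says whether the series list was called on both replicates together, so its overlap with them is no independent support. The depth is unknown. The labels do not say that the replicates came from separate cultures. The deposited name of the replicate 2 list includes "csr1", which no label explains, and the title and the description of the antibody give it different numbers. Values are therefore given for each replicate list alone as well. Peaks are parts of a single map and not replicates, so the left arm and the centre were compared by description, with the replicate lists beside the series list. With 2 replicates an exact sign-flip permutation test cannot go below p = 0.5, and none was made.

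The left arm held fewer COH-1 peaks per Mb than the centre in all 3 lists. The series list had 129 peaks per Mb on the left arm and 196 in the centre, a ratio of 0.659 (log2 ratio -0.60). Replicate 1 had 20.9 peaks per Mb on the left arm and 34.2 in the centre, and replicate 2 had 30.7 on the left arm and 44.8 in the centre. The log2 ratio of the replicate lists averaged -0.63 ± 0.12 (SD, n = 2), so both lists put the left arm at about the same level below the centre. The series list overlaps nearly all of their peaks, so its similar ratio is no independent support. The right end is short and less certain: it held 194 series peaks per Mb, but 6 replicate 1 peaks and 14 replicate 2 peaks in all.

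The left arm was also the lower part in bases covered. Series peaks covered 8.38% of the left arm and 11.9% of the centre. Replicate 1 peaks covered 6.71% of the left arm and 10.8% of the centre, and replicate 2 peaks covered 8.85% of the left arm and 13.7% of the centre. The left arm was thus at 0.633 ± 0.019 times the centre in covered bases in the replicate lists (mean ± SD, n = 2) and at 0.706 times in the series list. With the left arm ended at 4 Mb, the log2 ratio of covered bases in the series list was -0.82 instead of -0.50.

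In windows of 500 kb, the 9 left arm windows held 42 to 101 series peaks with a median of 55, and the 13 centre windows held 63 to 140 with a median of 87. The ranges overlapped, yet 5 left arm windows lay below every centre window and only 1 lay above the centre median. In replicate 1 the left arm windows held 4 to 23 peaks with a median of 8, and the centre windows 11 to 27 with a median of 17. Again 5 of 9 left arm windows were below every centre window. In replicate 2 the left arm windows held 9 to 23 peaks with a median of 15, and the centre windows 12 to 35 with a median of 22, and here 2 of 9 lay below every centre window. Every window had a peak in every list.

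**Figure D1:**
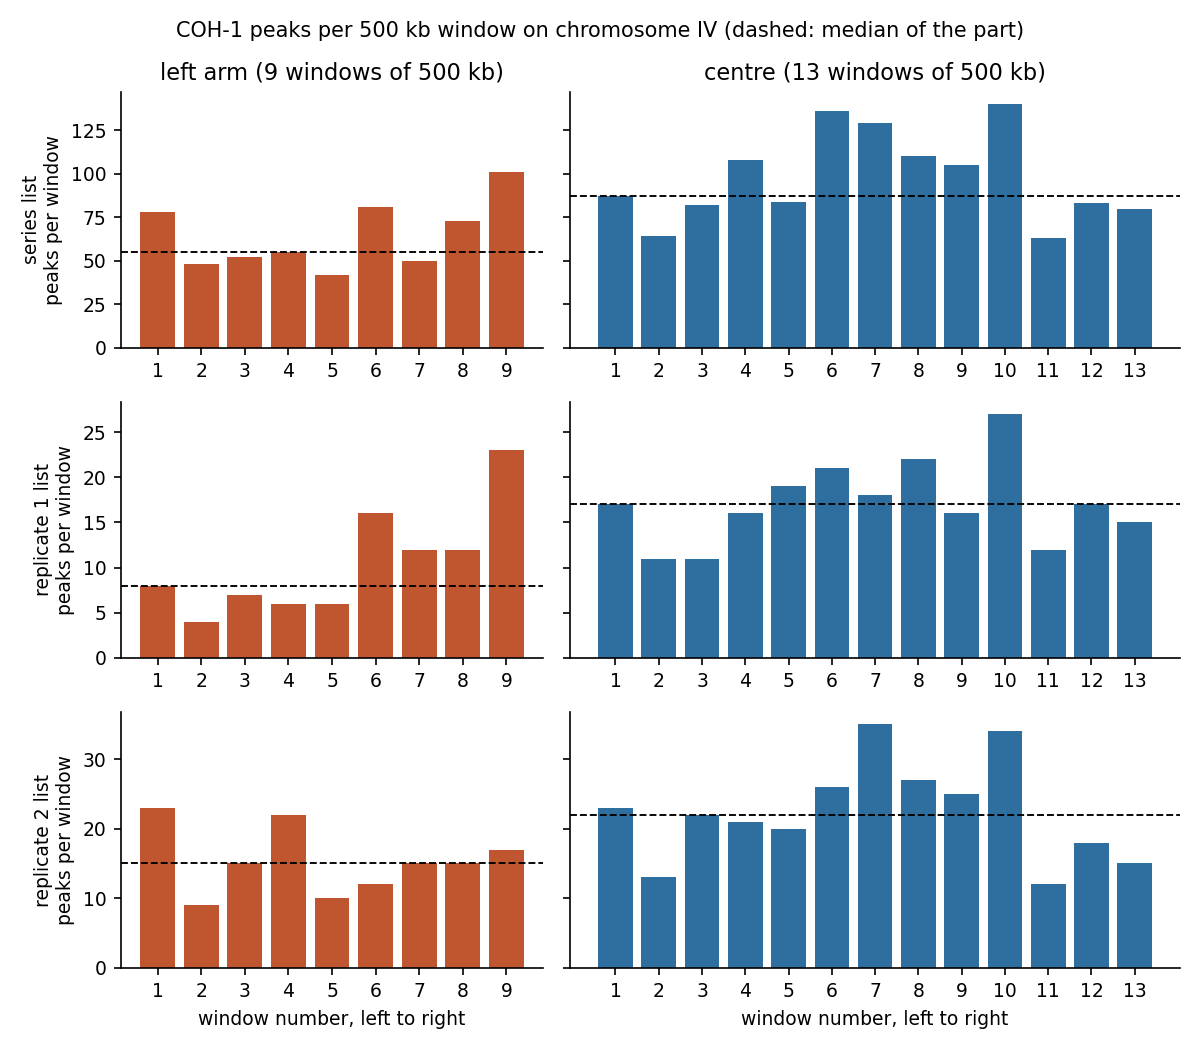
Number of COH-1 peaks (y axis) in each 500 kb window (x axis, window number) of the left arm and the centre of IV, for the series, replicate 1 and replicate 2 lists, with the median of each part as a dashed line. The median is higher in the centre in each list (left arm 55, 8 and 15; centre 87, 17 and 22).

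The left arm was uneven. The window from 4000001 to 4500000, its innermost, was the densest of the left arm in the series list, with 101 peaks, and in replicate 1, with 23. In replicate 2 it held 17 peaks, fewer than the windows that start at 1 (23 peaks) and 1500001 (22 peaks). Series peaks covered 21.7% of it and replicate 1 peaks 21.0%, in each case the highest share of all 22 windows. Replicate 2 peaks covered 14.3% of it, less than in several centre windows, where the highest share was 20.4%. The sparsest left arm window in the series list was 2000001 to 2500000, with 42 series peaks, 6 in replicate 1 and 10 in replicate 2. Coverage was lowest nearer the left end, from 500001 to 1000000, where series peaks covered 3.33%, replicate 1 peaks 1.46% and replicate 2 peaks 3.98%. All 3 lists put their lowest left arm coverage in that window.

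The replicates differed in how their peak counts were spread along the left arm, a pattern noticed after the values were seen. The first 5 windows held 4 to 8 replicate 1 peaks each and the last 4 held 12 to 23, so these ranges did not overlap. In replicate 2 the first 5 windows held 9 to 23 peaks and the last 4 held 12 to 17, with no such step in counts. In covered bases both replicates ranged higher in the last 4 windows. Replicate 2 covered 3.98% to 11.1% of the first 5 and 7.73% to 14.3% of the last 4, ranges that overlap. Replicate 1 covered 1.46% to 4.74% of the first 5 and 5.35% to 21.0% of the last 4. The first window alone had 8 peaks in replicate 1 and 23 in replicate 2, where it was the densest of the left arm.

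The centre had its dense stretch between 9500001 and 12000000. The densest centre window in the series list was 11500001 to 12000000, with 140 series peaks, 27 replicate 1 peaks and 34 replicate 2 peaks. The next was 9500001 to 10000000, with 136 series peaks. Replicate 2 had its maximum of 35 peaks in the window 10000001 to 10500000, where peaks covered 20.4% of its bases but 11.3% in replicate 1. The sparsest centre window in the series list was 12000001 to 12500000, with 63 series peaks, 12 in replicate 1 and 12 in replicate 2. In replicate 1 the lowest count was 11, in the windows that start at 7500001 and 8000001. The window 7500001 to 8000000 had the lowest coverage of the centre in each list, at 6.46%, 4.91% and 6.04% in the series, replicate 1 and replicate 2 lists.

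The replicate lists were compared window by window. For the share of each window inside peaks, across the 22 windows of left arm and centre, Pearson's r between the replicates was 0.80 and Spearman's rho 0.84. Within the 9 left arm windows r was 0.86, and within the 13 centre windows 0.71. For the number of peaks per window, r was 0.61 (rho 0.59) over the 22 windows, 0.08 (rho 0.31) on the left arm and 0.73 (rho 0.71) in the centre, so that on the left arm the replicates' counts went together far less than their coverage did. These values describe windows of 1 chromosome, which share libraries and are not independent. Replicate 2 coverage was the higher in 8 of 9 left arm windows and 11 of 13 centre windows. The exception on the left arm was the innermost window, at 21.0% in replicate 1 and 14.3% in replicate 2.

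**Figure D2:**
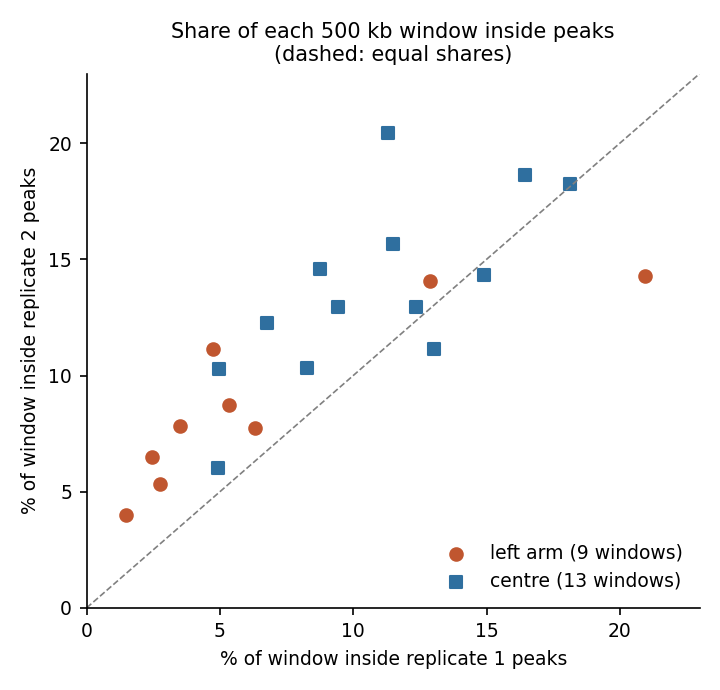
Percentage of each 500 kb window inside replicate 1 peaks (x axis) and inside replicate 2 peaks (y axis), for 9 left arm windows (circles) and 13 centre windows (squares), with equal shares as a dashed line. Most windows lie above the line, and the left arm window furthest right is the innermost, at 21.0% and 14.3%.

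Long stretches without any peak took up more of the left arm than of the centre. Stretches of 50 kb or more with no peak in any list made up 52.8% of the left arm and 34.4% of the centre. Outside them, the series list held 273 peaks per Mb on the left arm and 298 in the centre, a ratio of 0.916. The ratio outside them was 0.850 in replicate 1 and 0.951 in replicate 2. The stretches are defined by the same peaks, so this restates where the peaks lie and is no separate measurement, and it was chosen after the data were seen. The longest were 165729 bp at 4220260 to 4385988 and 165601 bp at 1867126 to 2032726, both on the left arm, and 150358 bp at 8631501 to 8781858 in the centre. The first of them lies inside the window that was the densest of the left arm in the series and replicate 1 lists.

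Peak width was nearly the same on the left arm and in the centre in the series list. The median was 316.5 bp on the left arm (middle 50% from 210 to 574 bp) and 327 bp in the centre (205.5 to 605 bp), with 318 bp at the right end. Replicate 1 medians were 2018 bp on the left arm and 2027 bp in the centre. In replicate 2 the left arm median was 1391 bp and the centre median 1770 bp, a difference of -379 bp against -9 bp in replicate 1. The replicate lists therefore do not place a width difference at a common size.

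Peaks over 5 kb were the 1 width class with more peaks per Mb on the left arm than in the centre. There were 8 on the left arm and 6 in the centre, or 1.78 per Mb of left arm and 0.923 per Mb of centre, and none at the right end. Such counts are small. The 3 other classes had left arm to centre ratios of 0.675 (at most 300 bp), 0.660 (above 300 and up to 1000 bp) and 0.549 (above 1000 and up to 5000 bp). Of the 8 wide left arm peaks, 5 lay between 4011221 and 4481871, in the innermost window.

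Those 5 form 3 groups. The widest left arm peak, 13537 bp at 4463054 to 4476590 (score 47.8 in the series list), was followed after 119 bp by a peak of 5162 bp, and both replicate lists overlapped both. A peak of 12410 bp at 4011221 to 4023630 (score 41.6) was followed after 107 bp by one of 10810 bp. Replicate 1 called the pair as 1 peak of 26270 bp, while the nearest replicate 2 peak lay 1826 bp away. The third, 11543 bp at 4395022 to 4406564 (score 32.4), was again in replicate 1 alone, and 37050 bp from replicate 2.

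In the centre the widest peaks showed the same split. The widest, 17003 bp at 8522986 to 8539988 (score 35.7), and the next, 15820 bp at 10813594 to 10829413 (score 47.3), were overlapped by replicate 1 alone. Replicate 2 came no nearer to them than 7183 and 15883 bp. The next was 10369 bp at 8789507 to 8799875 and was found in both. Over the 14 peaks wider than 5 kb, 9 were in both replicate lists (64.3%, against 69.6% of all 214 series peaks of that width) and 5 in replicate 1 alone. Of the 14, 0 were in neither list, against 18 of the 214 (8.41%). The share of the 214 in replicate 1 alone was not counted. These are few peaks, and the split is not shown to be particular to these regions.

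Scores in the series list were slightly higher on the left arm. The score is the authors' peak caller's own value, and no source says what it measures, so it only ranks peaks within a list. The median series score was 6.12 on the left arm and 5.64 in the centre, with 5.66 at the right end. Of left arm peaks, 29.1% (exact 95% binomial interval 25.5 to 33.0) were in the highest 25% of all series scores, against 24.9% (22.5 to 27.3) of centre peaks; the intervals overlap and cover counting error only. In the replicate lists the order was mixed: 175 on the left arm and 166 in the centre in replicate 1, and 333 on the left arm and 374 in the centre in replicate 2. Replicate 2 scores are tied at 3100 for 12 left arm peaks and 36 centre peaks, which leaves those peaks unranked among themselves.

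Per Mb, even the strongest 25% of peaks were sparser on the left arm. There were 37.6 such peaks per Mb on the left arm and 48.6 in the centre, a ratio of 0.773. In the lowest 25% there were 27.8 per Mb on the left arm and 48.6 in the centre, a ratio of 0.571. Wide peaks also had higher scores: Spearman's rho between width and score was 0.72 on the left arm and 0.72 in the centre, across peaks of 1 list.

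**Figure D3:**
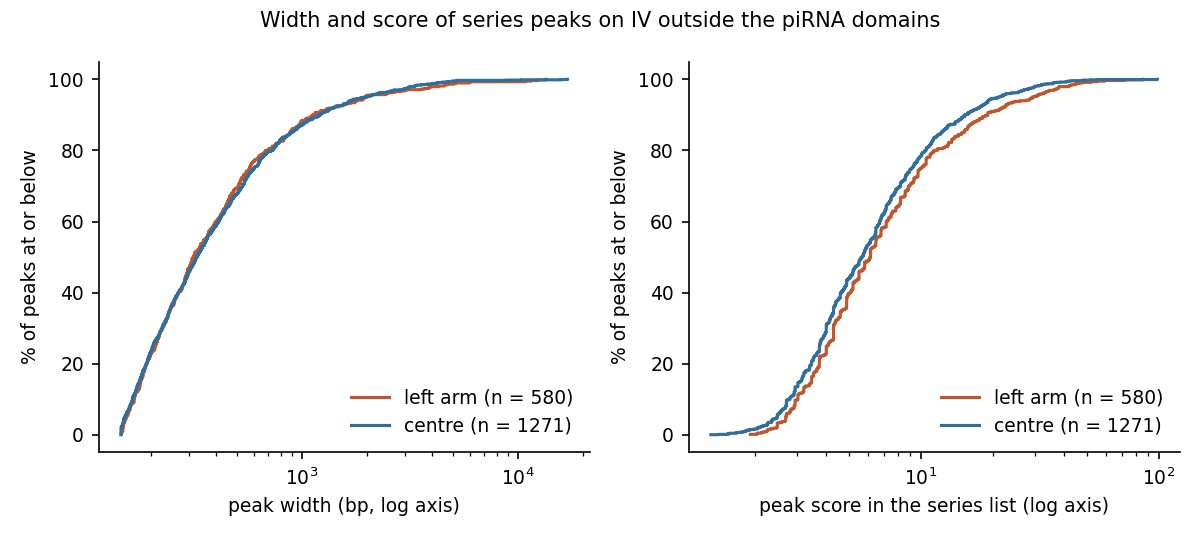
Cumulative percentage of series peaks (y axis) by peak width in bp and by score (x axes, log scale), for 580 left arm and 1271 centre peaks. The width curves nearly coincide (medians 316.5 bp on the left arm and 327 bp in the centre), and the left arm score curve lies slightly to the right (medians 6.12 on the left arm and 5.64 in the centre).

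Series peaks on IV came in dense runs on the left arm as well as in the centre. The distance between neighbouring peaks had a median of 540 bp on the left arm and 420.5 bp in the centre, and 85.3% of left arm neighbours (95% interval 82.2 to 88.1) and 88.0% of centre neighbours (86.1 to 89.8) lay within 5 kb. In replicate 1 the median distance was 2628 bp on the left arm and 2790 bp in the centre, and 57.0% of left arm and 56.1% of centre neighbours were within 5 kb, so the small differences in the series list are of the opposite sign there. In replicate 2 the median was 3417 bp on the left arm and 1955.5 bp in the centre, with 58.4% of left arm and 61.7% of centre neighbours within 5 kb. By these measures the replicate lists differed in direction. At shorter range the left arm had the smaller share in each list. Neighbours at most 500 bp apart made up 48.0% on the left arm (43.9 to 52.2) and 55.4% in the centre (52.6 to 58.1) in the series list. The shares were 26.9% on the left arm and 28.5% in the centre in replicate 1, and 24.1% on the left arm and 27.9% in the centre in replicate 2, where the 95% intervals overlapped in both lists. Distances over 50 kb had the larger share on the left arm in each list, though their 95% intervals overlapped in each. They made up 4.15% of left arm and 2.36% of centre distances in the series list. In replicate 1 they made up 30.1% on the left arm and 22.2% in the centre, and in replicate 2 18.2% on the left arm and 14.8% in the centre.

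**Figure D4:**
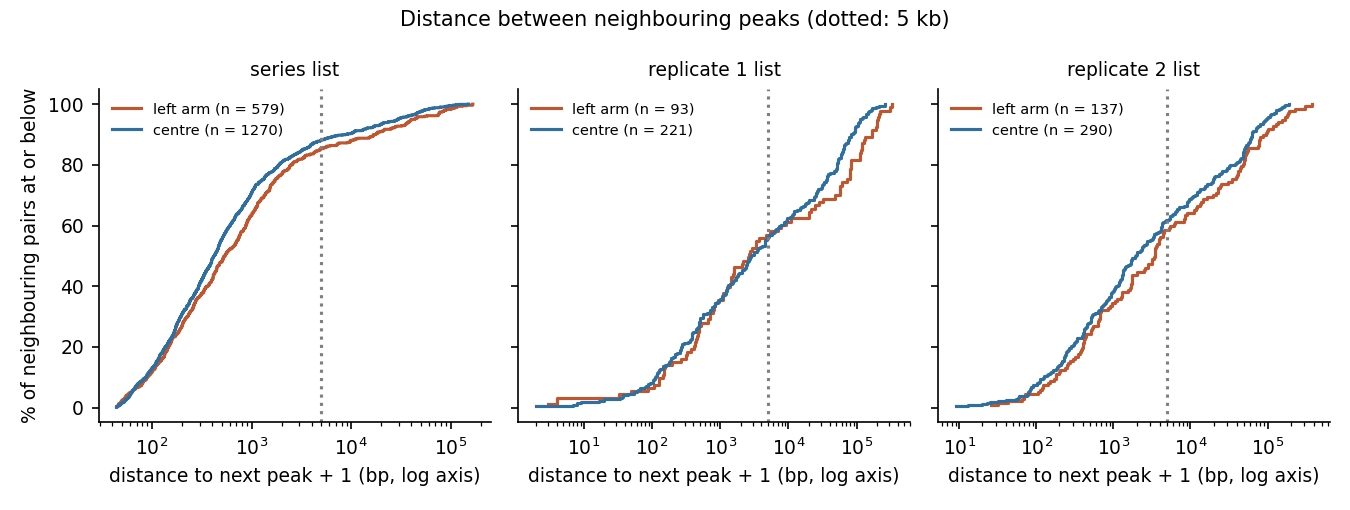
Cumulative percentage of neighbouring peak pairs (y axis) by the distance between them plus 1 bp (x axis, log scale) on the left arm and in the centre, in the 3 lists, with 5 kb as a dotted line. Within 5 kb lay 85.3% of left arm and 88.0% of centre pairs in the series list. Up to there the replicate 1 curves cross. In replicate 2 the centre share was the higher at 500 bp, 1 kb, 2 kb and 5 kb, with 50.3% of centre and 43.8% of left arm pairs within 2 kb.

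When neighbours within 5 kb were joined, the left arm held 86 runs and the centre 153. That is 19.1 runs per Mb of left arm and 23.5 per Mb of centre, with a mean of 6.74 peaks a run on the left arm and 8.31 in the centre. In replicate 1 there were 9.11 runs per Mb of left arm and 15.1 per Mb of centre, and in replicate 2 12.9 per Mb of left arm and 17.2 per Mb of centre. The number of runs per Mb was thus lower on the left arm in all 3 lists. The mean size of a run was 2.29 peaks on the left arm and 2.27 in the centre in replicate 1, and 2.38 on the left arm and 2.60 in the centre in replicate 2. In the series list, single peaks made up 38.4% of left arm runs and 26.8% of centre runs, but runs of 10 peaks or more held 67.8% of left arm and 76.9% of centre peaks. The median distance between runs was 28.5 kb on the left arm and 23.3 kb in the centre.

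The longest runs by number of peaks were of like size in both parts. The left arm had 35 peaks at 4443788 to 4492804, 33 at 271925 to 314786 and 28 at 3627607 to 3659322. The centre had 37 at 12684561 to 12724833, 33 at 9643624 to 9682941 and 31 at 11565363 to 11606360. In the left arm run of 35 peaks, 78.5% of its 49017 bp lay inside peaks, against 42.3% of the 40273 bp of the centre run of 37 peaks. By span, the longest centre run was another, of 58066 bp. At the right end a single run at 17260395 to 17294868 held 31 of its 57 peaks.

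Of the 1908 peaks, 662 were overlapped by at least 1 bp by both replicate lists (34.7%, 95% interval 32.6 to 36.9), against 36.2% of all series peaks. Replicate 1 overlapped 818 (42.9%, against 42.6% of all series peaks), and replicate 2 overlapped 1225 (64.2%, against 65.7%). Neither overlapped 527 (27.6%, against 27.8%). These shares are near those of the whole list.

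Within IV, the share found by both was lower on the left arm, and the difference lay in replicate 1. On the left arm 172 of 580 peaks were in both (29.7%, 95% interval 26.0 to 33.6), and in the centre 479 of 1271 (37.7%, 35.0 to 40.4). Replicate 1 overlapped 36.4% of left arm peaks (32.5 to 40.4) and 46.7% of centre peaks (44.0 to 49.5). Replicate 2 overlapped 63.8% of left arm peaks (59.7 to 67.7) and 64.2% of centre peaks (61.5 to 66.8). At the right end 11 of 57 were in both (19.3%, 10.0 to 31.9). These intervals count each series peak as independent. A replicate 1 peak, however, held on average 2.30 series peaks on the left arm and 2.68 in the centre. The intervals are therefore too narrow, and their separation is no test of the difference.

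The lower recovery by replicate 1 was seen among strong peaks too. In the highest 25% of series scores, replicate 1 overlapped 123 of 169 left arm peaks (72.8%, 95% interval 65.4 to 79.3) and 267 of 316 centre peaks (84.5%, 80.02 to 88.3). In the 25% below that it overlapped 33.3% on the left arm (25.7 to 41.7) and 53.2% in the centre (47.6 to 58.6). Replicate 2 overlapped 78.7% on the left arm and 80.7% in the centre in the highest 25%, and 72.9% on the left arm and 73.3% in the centre in the 25% below. For all series peaks, only the share in both lists was counted by score class. In the highest 25% it was 58.0% on the left arm and 71.8% in the centre, against 69.2% of all series peaks. In the 25% below it was 30.6% on the left arm and 43.5% in the centre, against 39.9%. The left arm was thus below the whole list and the centre somewhat above it. By window, the share in both ran from 16.7% to 31.0% in the first 5 left arm windows and from 31.5% to 40.7% in the last 4. In the centre it ran from 22.0% at 8000001 to 8500000 to 54.0% at 12000001 to 12500000.

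**Figure D5:**
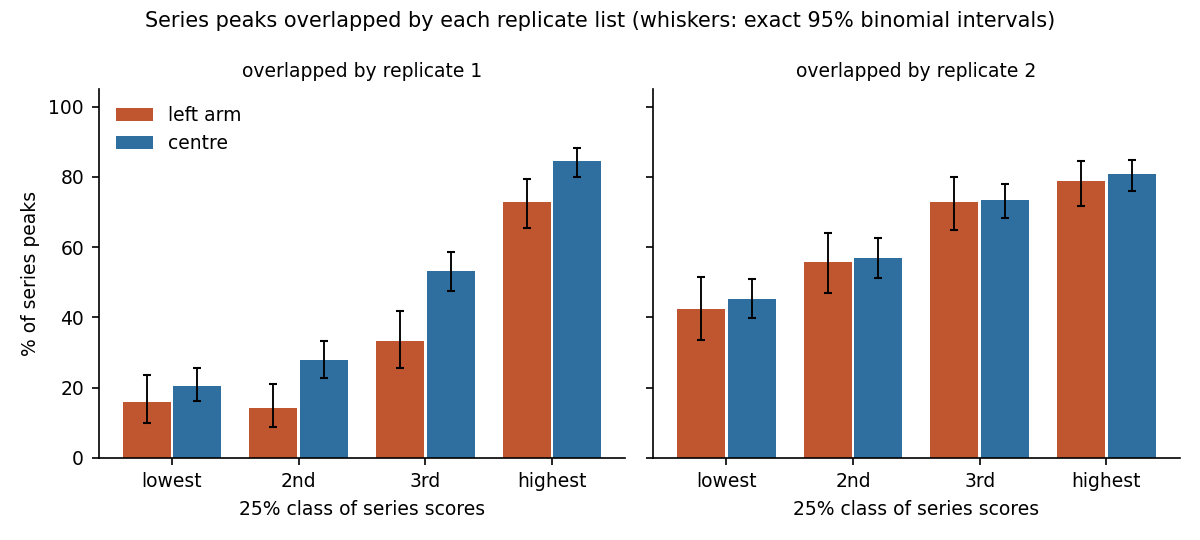
Percentage of series peaks overlapped by replicate 1 and by replicate 2 (y axis) in each 25% class of series scores (x axis), for the left arm and the centre, with exact 95% binomial intervals. In replicate 1 the left arm is lower in each class (left arm 72.8% and centre 84.5% in the highest), while in replicate 2 the bars are close (left arm 78.7% and centre 80.7%).

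Peaks found by both replicates were stronger and wider than those found by neither, in both parts. On the left arm the median series score was 10.2 in both and 4.29 in neither, and the median width 639 bp in both and 215 bp in neither. In the centre the score was 8.76 in both and 4 in neither, and the width 595 bp in both and 206 bp in neither. Peaks in both were not the strongest class on the left arm, where the 39 in replicate 1 alone had a median score of 13.6. In the centre the 115 in replicate 1 alone had 6.7. Those in replicate 2 alone had 5.49 on the left arm and 4.58 in the centre. Wider peaks overlap others more often by position alone. By width, of peaks up to 300 bp 8.82% were in both on the left arm and 15.8% in the centre, against 15.0% of all series peaks. Of those above 1000 and up to 5000 bp, 78.3% were in both on the left arm and 80.4% in the centre, against 81.0%. Only the narrow class on the left arm thus lay well away from the share of the whole list.

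Between the replicate lists, replicate 1 peaks were mostly found again. Replicate 2 overlapped 273 of 322 replicate 1 peaks on IV outside the piRNA domains (84.8%, 95% interval 80.4 to 88.5), against 87.1% of the whole replicate 1 list. Replicate 1 overlapped 214 of 443 replicate 2 peaks (48.3%, 43.6 to 53.1), against 51.2% of the whole replicate 2 list. For replicate 1 peaks the share was 86.2% on the left arm and 84.2% in the centre. For replicate 2 peaks it was 41.3% on the left arm (33.0 to 49.99) and 52.2% in the centre (46.3 to 58.1). In bases, 73.4% of replicate 1 peak sequence on the left arm and 76.3% in the centre lay inside replicate 2 peaks.

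Replicate 2 peaks without a partner were weak and narrow. On the left arm the 81 unmatched peaks had a median score of 176 in that list and a median width of 1150 bp, and the 57 matched a score of 1450 and a width of 3245 bp. In the centre the 139 unmatched had a score of 135 and a width of 1131 bp, and the 152 matched a score of 1451 and a width of 3595.5 bp. Replicate 1 did not show such a split on the left arm, where 13 unmatched peaks had a median score of 289 in that list and 81 matched peaks 153. In the centre 35 unmatched replicate 1 peaks had a median score of 136 and 187 matched peaks 167.

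The series list overlapped all 322 replicate 1 peaks (against 99.8% of that whole list) and 426 of 443 replicate 2 peaks (96.2%, against 96.8%) of these regions, shares near those of the whole lists. Of the 17 replicate 2 peaks it lacked, 15 were in the centre and 2 on the left arm. These were 5.15% of 291 centre peaks (exact binomial interval 2.91 to 8.36) and 1.45% of 138 left arm peaks (0.176 to 5.14). The intervals overlap. Among replicate peaks that the series list overlapped, a replicate 1 peak held on average 2.30 series peaks on the left arm and 2.68 in the centre, and a replicate 2 peak 2.72 on the left arm and 2.96 in the centre. Replicate peaks thus often span several series peaks.

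The strongest left arm peaks found by both replicates clustered near 2.7 Mb. The highest series score of the left arm, 85.6, was that of a peak of 1128 bp at 2774395 to 2775522, beside one of 5066 bp at 2775576 to 2780641 (score 59.1). Both overlapped the same replicate 1 peak of 7184 bp (score 2988 in that list) and the same replicate 2 peak of 22512 bp (score 1793). A second pair, at 2708536 to 2709055 (score 51.6) and 2709172 to 2713121 (score 55.0), also shared its replicate peaks. The fifth was a peak of 3858 bp at 1658138 to 1661995 (score 71.4), which replicate 1 called over 5430 bp and replicate 2 over 5485 bp. The 5 peaks are therefore 3 regions in the replicate lists.

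In the centre the strongest was the peak at 8789507 to 8799875, with a score of 98.4. Replicate 1 called 14620 bp over it (score 2613 in that list) and replicate 2 called 16572 bp (score 3100). It is the first wide peak after the longest empty stretch of the centre, which ends at 8781858. The next were 4798 bp at 8427030 to 8431827 (score 55.4), 4976 bp at 13308748 to 13313723 (51.6), 3008 bp at 13325027 to 13328034 (48.0) and 4691 bp at 13395241 to 13399931 (42.0). Each of these 4 had a replicate 2 score of 3100 and a replicate 1 score from 1277 to 1440. The score of 3100 is a tied value, held by 373 of the 3714 replicate 2 peaks (10.0%). Of the 5, 3 lie within the last window of the centre.

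The right end had no peak of such rank. Its strongest peaks in both replicates were at 17268530 to 17269044 (score 15.9), 17469070 to 17469547 (15.3) and 17263614 to 17266854 (13.7), the last being 3241 bp, the widest there. Replicate 1 scores over them were 142, 227 and 322, and replicate 2 scores 636, 1846 and 2252.

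Some strong peaks had no partner in 1 or both of the replicate lists. The highest-scoring series peaks that neither replicate overlapped were 1714 bp at 11070837 to 11072550 (score 36.2), 2005 bp at 2828577 to 2830581 (31.4) and 569 bp at 12637945 to 12638513 (25.8). Replicate 2 came within 6295, 4647 and 15614 bp of them. Replicate 1 peaks with no replicate 2 partner were led by 2987997 to 2994296 (score 1828 in that list), 11589666 to 11595683 (1688) and 10810601 to 10829421 (1473). Replicate 2 peaks with no replicate 1 partner were led by 3050043 to 3051323 (score 2883 in that list), 13385819 to 13389969 (2507) and 2275249 to 2277303 (1892). All 6 overlapped series peaks.

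Outside the piRNA domains IV carried 169 series peaks per Mb, against 86.5 inside them, a ratio of 1.95. The ratio was 1.98 ± 0.07 in the replicate lists (mean ± SD, n = 2). The domains differed, with 144 peaks per Mb in the first and 47.3 in the second, so the left arm at 129 was below the first domain and above the second. The other nuclear chromosomes together held 161 series peaks per Mb and ranged from 122 on V to 191 on III. Median width was 323 bp on IV outside the domains and 322 bp on the other nuclear chromosomes, with a median score of 5.79 on IV outside the domains and 5.49 on the others.

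The nearest peaks on either side of the limits of the domains scored between 2.46 and 8.58. Some lie far from the limit: the domain peak nearest 17200001 ended at 17108476, and that nearest 7000001 ended at 6959844. The last left arm peak, at 4492458 to 4492804, scored 5.49, and the first in the domain beyond it 4.87. At the start of the centre the scores were 5.80 in the centre and 4.14 in the domain, and at its end 4.10 in the centre and 2.46 in the domain. At the start of the right end they were 8.58 in the right end and 5.18 in the domain. These are single peaks on each side, and an effect of the limits was not tested.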

How the data were processed

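COH-1 ChIP-seq peak lists of 2 ChIP samples were analysed; the 2 inputs were not analysed here. The submitters' processing notes name BWA and ce10, and WormBase WS220 stands in the deposited headers. The source column of the deposited files names MACS for the replicate lists and MACS v2 for the series list. Caller thresholds were not stated in those sources. Each peak's score is the authors' own, and no source explains it. Starts and ends are 1-based.

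The analysis used Python (3.11.15), SciPy (1.17.1), NumPy (2.4.6) and pandas (2.3.3). Overlap meant at least 1 bp. Distances run from a peak's end to the next start within a part, and bases were counted once. The 25% classes of score use all series peaks. Intervals are exact Clopper-Pearson at 95% and cover counting error only. They treat peaks as independent and are too narrow where neighbouring series peaks share a replicate peak. Depth is unknown. The functions were tested on simulated data. No gene names or sequences are given, since no WS220 annotation or genome was used here. Named peaks are, among those in both replicates, the 5 with the highest series score on the left arm and in the centre and 3 at the right end; the 3 widest of both main parts; and the 3 strongest unmatched of each list. Alternatives were a score limit, merging, other limits of the parts, overlap rules and single lists. The members, rules and lists were chosen with earlier results of these data known.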

Additional observations from a re-analysis of the deposited data

How the results depend on the processing

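Of 58 alternatives over 11 comparisons, 32 stayed within a spread, 23 moved further and 3 turned round. That spread was the SD between the replicate lists, or the counting interval for overlap shares and scores. It was wide for the differences in median width (SD 262 bp) and median distance (SD 1148 bp), so staying within it says little there. Leaving out peaks that cross a limit of the parts changed no value. Single replicate lists were judged against a spread that they themselves define. The left arm kept fewer peaks and covered bases per Mb than the centre in each alternative. The log2 density ratio of -0.60 was -0.38 with series peaks within 500 bp merged and -0.13 outside stretches of 50 kb or more without a peak, an alternative chosen after seeing the data; single replicate lists ran from -0.71 to -0.55. The log2 ratio of covered bases, -0.50, was -0.44 for the upper 50% of scores, -0.56 with merging, -0.82 with the left arm ended at 4 Mb, and from -0.69 to -0.63 in single replicate lists. In single lists the left arm minus centre difference ran from -379 to -9 bp in median width, from -162 to 1461.5 bp in median distance and from -3.33 to 0.881 percentage points in neighbours within 5 kb, so replicate 1 turned the last 2 round. The share in both replicates, 34.7%, was 32.4% with 50% of the series peak overlapped, 2.04% with 50% of both peaks and 52.0% for the upper 50% of scores, and 42.9% to 64.2% for a single replicate list. Its left arm minus centre difference, -8.03 percentage points, was -12.8 for the upper 50% of scores, 0.274 with 50% of both peaks, a rule that a narrow peak inside a wide one always fails, and from -10.4 to -0.408 in a single list. With 50% of both peaks, 46.9% of replicate 1 and 34.1% of replicate 2 peaks were found again, and with replicate 2 cut to its strongest peaks in the number of replicate 1, 80.1% and 62.3%. The log2 ratio outside over inside the piRNA domains, 0.97, was 1.09 for the upper 50% of scores, 0.91 with merging and 0.95 to 1.02 in single lists. The cause of these shifts was not tested. No paired analysis was possible because the inputs that share replicate numbers with the ChIP samples have no values here.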
